A study of Mus musculus with 21 samples.

Results

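The probes described here are the array spots that carry a hybrid of a CRE site and a C/EBP site. The rule that picks them reads sequence alone: a probe was taken when its printed sequence held the octamer made of the first 4 bases of the CRE palindrome and the last 4 bases of the C/EBP palindrome, or the reverse complement of that octamer. This rule found 35 of the 40330 probes on the array, each with 35 variable bases, and no binding value enters the rule. The data were 21 protein binding microarrays, glass slides of short DNA probes on which a labelled protein binds and the fluorescence of each spot is read. The proteins were DNA-binding domains with an N-terminal GST tag, made in a cell-free transcription and translation system and applied to bare DNA, so no cell, partner protein or chromatin was present.

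The 10 groups were each 1 protein on 1 form of cytosine. CREB1 and the mutants CREB1(A297V) and CEBPB(V285A) each met unmodified cytosine (C), 5-methylcytosine (5mC) and 5-hydroxymethylcytosine (5hmC), and wild-type CEBPB is analysed here on 5hmC. In all groups the array was made double-stranded by primer extension with the named form of cytosine, so that only the synthesised strand was modified. There were 2 arrays in 8 of the groups, 1 array for CREB1 on 5mC and 4 for CREB1(A297V) on 5hmC. The labels do not say whether the protein was made anew for each replicate, so p-values measure only the spread between these arrays, which may be technical.

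CREB1 and CEBPB belong to the bZIP family, proteins that bind DNA as dimers in which each basic region reads one side of the site. CREB1 is known for the CRE, a palindrome of TGAC and GTCA that links gene expression to cAMP signalling and whose central CG is a target of methylation. CEBPB is known for a palindrome of TTGC and GCAA and for roles in differentiation and inflammation. V285A and A297V are substitutions in the DNA-binding domains of CEBPB and CREB1. 5mC is the methylated base made by DNA methyltransferases, and 5hmC is its first oxidation product, made by TET enzymes.

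The hybrid octamer is not a palindrome, so its orientation decides which cytosines were modified. On the synthesised strand, read 5′ to 3′, 17 probes carried TGACGCAA and 18 carried TTGCGTCA. In TGACGCAA the modified bases were position 4, the C of the central CG, and position 6, in the C/EBP half-site GCAA. In TTGCGTCA they were position 4, again the C of the central CG, and position 7, in the CRE half-site GTCA. The synthesised strand was taken as the reverse complement of the printed sequence, because each printed sequence is followed by a constant linker. That was assumed and not tested, and if it were wrong the names of the orientations would trade places.

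The following probes carry most of the results below and are written as the synthesised strand, 5′ to 3′, with the hybrid octamer in capitals and every c or C modified on the 5mC and 5hmC arrays. The TGACGCAA probes include the brightest (HK09524) and the dimmest (HK39573) by mean log2 level over the 10 groups, and those with the largest called changes.
HK09524: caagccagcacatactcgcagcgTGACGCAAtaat
HK27478: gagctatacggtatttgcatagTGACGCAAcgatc
HK33523: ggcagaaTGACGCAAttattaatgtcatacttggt
HK32581: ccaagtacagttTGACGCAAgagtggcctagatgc
HK33530: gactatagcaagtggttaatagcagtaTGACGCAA
HK39573: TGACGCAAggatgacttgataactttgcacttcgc
HK39574: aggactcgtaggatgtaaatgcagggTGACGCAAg
By the same mean the TTGCGTCA probes include the dimmest (HK33079) and the brightest (HK33342), which HK30809 equalled at 1.52 after rounding. HK33342 was not the brightest on C, where its mean with CEBPB(V285A) was 15.6, against 28.4 for HK16883. The TTGCGTCA probes also include those that fell most and the single one that rose with 5mC (HK30170).
HK19317: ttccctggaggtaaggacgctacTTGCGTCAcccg
HK25798: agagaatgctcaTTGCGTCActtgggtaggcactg
HK35601: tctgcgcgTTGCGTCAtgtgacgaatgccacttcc
HK30170: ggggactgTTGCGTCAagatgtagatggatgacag
HK33342: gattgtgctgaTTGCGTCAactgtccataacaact
HK33079: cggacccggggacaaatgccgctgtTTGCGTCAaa

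Consecutive probes HK33529 and HK33530, HK37104 and HK37105, and HK39573 and HK39574 share 9 bases that include the octamer. None held a CRE palindrome, a C/EBP palindrome, a composite site or a second hybrid octamer elsewhere in its variable bases. Another CRE, C/EBP or PAR half-site of 4 bases lay outside the octamer in 7 of the 17 TGACGCAA probes and in 10 of the 18 TTGCGTCA probes. The synthesised variable bases held 5 to 11 cytosines in the TGACGCAA probes, with a median of 8, and 4 to 12 in the TTGCGTCA probes, with a median of 8.5.

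Values are relative signals: the median intensity of the spot divided by the median of all spots on that array, so that a typical spot is at 1. Local background was not subtracted, which compresses folds. The array median ran from 76 to 2357.5 intensity units, and the typical ratio of a spot to its local background from 0.965 to 5.85. The lowest array median was on replicate 3 and the lowest such ratio on replicate 2 of CREB1(A297V) on 5hmC. Between replicate arrays, log2 values over the 35 members correlated at r of 0.72 (CEBPB on 5hmC) to 0.98 (CREB1 on 5hmC). Spots at the scanner's ceiling, taken as 65000 units or more, occurred among members on the CREB1 5mC array (3 members), on CEBPB(V285A) 5mC arrays (4 and 1) and on CREB1 5hmC arrays (4 and 5). The deposited array names hold 6 different numbers, whose meaning the labels do not give. CREB1 and CREB1(A297V) shared a number on C and 5mC, whereas each form of CEBPB(V285A) had a number of its own, so for CEBPB(V285A) number and form cannot be told apart.

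On unmodified DNA the medians of the orientations were similar, and those with CEBPB(V285A) were the highest. The array median over the TGACGCAA probes was 10.5 ± 0.424 (SD, n = 2) for CEBPB(V285A), 3.87 ± 0.304 for CREB1 and 1.75 ± 0.00707 for CREB1(A297V). Over the TTGCGTCA probes it was 13.8 ± 1.77, 3.37 ± 0.629 and 1.62 ± 0.247 in the same order. The ratio of the TGACGCAA median to the TTGCGTCA median ran from 0.712 to 1.40 over the 6 C arrays. It was below 1 on both CEBPB(V285A) arrays and on either side of 1 for the 2 arrays of each of the other proteins. The brightest TGACGCAA probes nonetheless stood above every TTGCGTCA probe on each C array. There were 5 such probes on each CREB1 and CREB1(A297V) array, and 3 and 4 on the CEBPB(V285A) arrays. The highest values on CREB1 C replicate 1 were 20.2 for TGACGCAA and 6.69 for TTGCGTCA. With both strands unmodified the octamer is the same DNA in either orientation. On these arrays the sets differ in surrounding bases, in position and in which end of the octamer faces the linker.

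On C, 8 of the 17 TGACGCAA probes and 15 of the 18 TTGCGTCA probes were higher with CEBPB(V285A) than with CREB1 at an adjusted p under 0.05, and no member was lower. Over the whole array 5.42% of probes were called higher and 0.295% lower. The median log2 difference was 1.31 for TGACGCAA and 1.73 for TTGCGTCA probes, against 0.02 for all probes. HK06610, a TTGCGTCA probe, read 2.84 and 3.20 on the CREB1 arrays and 21.7 and 19.0 on the CEBPB(V285A) arrays, a log2 difference of 2.75 ± 0.47 (SE; adjusted p = 0.00065). HK33523 read 4.18 and 5.03 with CREB1 and 24.0 and 21.7 with CEBPB(V285A), a log2 difference of 2.31 ± 0.46 (adjusted p = 0.0028). Neither probe's arrays overlapped between the proteins. The count depended on scaling: 10 members were called after normexp background correction and 1 after quantile normalization, and array number and protein cannot be told apart here.

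CREB1(A297V) was lower than CREB1 on C at 2 TGACGCAA and 10 TTGCGTCA probes, and higher at none. Of all probes, 3.01% were called lower and 0.888% higher. The median log2 difference was -0.97 and -1.12 in these orientations, against 0.02 over all probes. HK30809 read 5.44 and 6.67 with CREB1 and 1.53 and 1.79 with CREB1(A297V), a log2 difference of -1.86 ± 0.26 (adjusted p = 0.00011). HK36961, one of the brightest TGACGCAA probes, read 10.0 and 11.6 against 3.07 and 2.88, with the same log2 difference of -1.86 ± 0.52 (adjusted p = 0.048). These proteins shared an array number. Within it 20 members were lower, though the share of all probes called in that fit is not given here. The count fell to 4 without CREB1(A297V) C replicate 1, to 7 without CREB1(A297V) C replicate 2 and to 6 without CREB1 C replicate 2, and it was 4 after normexp and 5 after quantile normalization.

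With 5mC on the synthesised strand the orientations moved apart for CEBPB(V285A). Of the TGACGCAA probes 10 of 17 rose and none fell. Of the TTGCGTCA probes 13 of 18 fell and 1 rose. The same test called 10.4% of all probes higher and 10.1% lower. The median log2 change was 1.57 for TGACGCAA and -1.36 for TTGCGTCA probes, against -0.05 for all probes. All 17 TGACGCAA probes had a positive estimate (0.16 to 2.94), and 16 of the 18 TTGCGTCA probes a negative one. After quantile normalization 14 members were called, 5 higher and 9 lower.

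The TGACGCAA probes with the largest called rises, HK39573 and HK32581, were among the dimmest on C. HK39573 read 2.30 and 2.90 on the C arrays and 17.6 and 22.3 on the 5mC arrays, a 7.66-fold rise (log2 change 2.94 ± 0.25, adjusted p = 1.7e-08). HK32581 read 3.20 and 3.72 on C and 18.0 and 34.3 on 5mC, a log2 change of 2.85 ± 0.30 (adjusted p = 3.8e-07). At the other end HK09524 read 54.8 and 37.6 on C and 66.8 and 71.1 on 5mC, where both of its spots were saturated, so its estimate is a lower bound, at least 1.52-fold higher (log2 change 0.60 ± 0.63, adjusted p = 0.6). The 7 TGACGCAA probes not called were HK01179, HK08478, HK09524, HK25527, HK27478, HK33523 and HK36961. They were the 7 brightest of their orientation on C, and 4 of them were saturated on at least 1 of the 5mC arrays.

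Among the TTGCGTCA probes HK19317 fell most. It read 32.4 and 18.6 on C and 1.89 and 1.36 on 5mC, a 15.3-fold fall (log2 change -3.93 ± 0.29, adjusted p = 2.8e-09). HK25798 went from 21.9 and 23.5 to 5.15 and 3.50, a log2 change of -2.42 ± 0.24 (adjusted p = 1.8e-07). The C arrays of both probes lay far above their 5mC arrays, on which HK25798 was still brighter than the typical spot. HK30170 was the exception: it read 3.80 and 4.38 on C and 24.6 and 30.7 on 5mC, a 6.74-fold rise (log2 change 2.75 ± 0.26, adjusted p = 7.8e-08). Its sequence above holds 4 cytosines on the synthesised strand, the fewest of the 35, and a further CRE half-site tgac near its 3′ end. The part of either feature in its rise was not tested.

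CREB1 was also lower on 5mC at TTGCGTCA probes, in a comparison that rests on a single 5mC array. That array is assumed to vary like the other groups. The median over TGACGCAA probes was 7.33 on it and 1.31 over TTGCGTCA probes. In the fit 9 TTGCGTCA probes fell and 1 TGACGCAA probe rose, where 1.51% of all probes were lower and 1.30% higher. The median log2 change was 1.15 for TGACGCAA and -1.37 for TTGCGTCA probes, against 0.01 for all probes. All 17 TGACGCAA probes had a positive estimate (0.36 to 1.74). HK32581, the one called, read 2.05 and 2.34 on C and 6.15 on 5mC (log2 change 1.49 ± 0.37, adjusted p = 0.03). HK25798 read 6.58 and 7.03 on C and 0.863 on 5mC, below the typical spot, a 7.88-fold fall (log2 change -2.98 ± 0.30, adjusted p = 1.1e-05).

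The number of CREB1 calls depended on the fit. With only the arrays that share a number, more members were called both higher and lower. The share of all probes called in that fit is not given here, so the added calls cannot be read as particular to the members. Quantile normalization gave 4 higher and 5 lower. Without CREB1 C replicate 2, and separately after normexp, 5 members fell and none rose. HK08478, HK09524 and HK27478 were saturated on the 5mC array, so their estimates are lower bounds of at least 2.17-fold, 2.35-fold and 2.14-fold higher, none of them called (adjusted p = 0.65, 0.55 and 0.49).

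For CREB1(A297V) on 5mC a few TGACGCAA probes were bright and most members were not. The array median was 1.94 ± 0.0636 over TGACGCAA and 1.08 ± 0.0141 over TTGCGTCA probes (SD, n = 2). The brightest TGACGCAA probe, HK27478, read 13.5 and 12.1, and HK09524 read 9.83 and 10.7. HK25798 alone was called as changed. It read 2.37 and 2.59 on C and 1.06 and 0.782 on 5mC, a log2 change of -1.44 ± 0.24 (adjusted p = 0.0073). Over the array 0.114% of probes were lower and 0.136% higher. Estimates were positive at 13 TGACGCAA probes and negative at 4, and negative at 15 TTGCGTCA probes and positive at 3. The call was lost without replicate 2 of either CREB1(A297V) group, 2 members were called without either CEBPB(V285A) 5mC array or after normexp, and 3 after quantile normalization.

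With 5hmC on the synthesised strand, CREB1 was high at TGACGCAA probes and near the typical spot at TTGCGTCA probes. The array median over TGACGCAA probes was 12.6 ± 0.636 (SD, n = 2), against 3.87 on C, and over TTGCGTCA probes 1.19 ± 0.0141, against 3.37 on C. Of the TGACGCAA probes 12 of 17 rose and none fell. Of the TTGCGTCA probes 12 of 18 fell and none rose. Over all probes 9.01% were higher and 8.30% lower. The median log2 change was 1.70 and -1.27, against 0.02 for all probes. CREB1 on 5hmC and on C did not share an array number, so number and form cannot be told apart.

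HK39574 had the largest called estimate, from 4.08 and 3.51 on C to 19.5 and 29.3 on 5hmC, a 6.32-fold rise (log2 change 2.66 ± 0.38, adjusted p = 4.9e-05). HK33523 went from 4.18 and 5.03 to 16.9 and 42.4, where the second spot was saturated, so its 5.83-fold estimate (adjusted p = 0.00058) is a lower bound. HK33530 went from 2.62 and 3.65 to 11.3 and 14.9, a log2 change of 2.07 ± 0.29 (adjusted p = 4.2e-05). Of the 5 TGACGCAA probes not called, HK08478, HK09524, HK25527 and HK27478 were at the ceiling on both 5hmC arrays, with all 4 at 46.6 and 42.4, and HK01179 was not. Their order was therefore not measured, and their estimates are lower bounds of at least 2.56-fold, 2.77-fold, 3.63-fold and 2.52-fold higher in that order. HK27478 had read 20.2 and 15.4 on C.

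HK25798 was the TTGCGTCA probe that fell most with CREB1. It read 6.58 and 7.03 on C and 1.13 and 1.10 on 5hmC, a 6.09-fold fall (log2 change -2.61 ± 0.24, adjusted p = 4.4e-07). HK35601 stood apart from the other TTGCGTCA probes on 5hmC. It read 5.41 and 7.28 on C and 8.01 and 5.22 on 5hmC, with overlapping arrays, while the other 17 read 2.32 or less on both 5hmC arrays. Besides the octamer it holds tgacga on the synthesised strand, a further CRE half-site, whose part in this value was not tested.

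CEBPB(V285A) was lower on 5hmC than on C at nearly every TTGCGTCA probe. Of these 16 of 18 fell, with a median log2 change of -3.07, against 0.06 for all probes. Of the TGACGCAA probes 2 fell, HK01179 and HK33529, and none rose, with negative estimates at 13 and positive ones at 4. Over the array 10.2% of probes were lower and 4.33% higher. The TGACGCAA median was -0.48 and turned to 0.20 after quantile normalization, so it has no settled direction. The array numbers differ between these groups too, so number and form cannot be told apart.

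HK19317 fell most in this comparison, from 32.4 and 18.6 on C to 0.817 and 0.897 on 5hmC, a 28.6-fold fall to below the typical spot (log2 change -4.84 ± 0.29, adjusted p = 7.2e-10). HK25798 read 21.9 and 23.5 on C and 1.39 and 1.01 on 5hmC, a log2 change of -4.26 ± 0.24 (adjusted p = 7.2e-10). The highest TTGCGTCA levels on 5hmC were at HK33342 and HK20266. HK33342 read 17.1 and 14.1 on C and 6.66 and 4.60 on 5hmC. HK20266 read 6.47 and 5.39 on C and 4.56 and 3.57 on 5hmC. HK33342 fell nonetheless (log2 change -1.49 ± 0.28, adjusted p = 0.00056), while HK20266 was not called (-0.55 ± 0.25, adjusted p = 0.16). Among TGACGCAA probes HK01179 fell from 21.4 and 10.2 to 2.67 and 2.53, a log2 change of -2.50 ± 0.39 (adjusted p = 8.3e-05). HK27478 read 37.7 and 42.7 on C and 32.1 and 88.3 on 5hmC, with overlapping arrays.

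CREB1(A297V) on 5hmC was close to the typical spot at most members. The array median over its 4 arrays was 1.27 ± 0.0907 for TGACGCAA and 0.976 ± 0.0246 for TTGCGTCA probes (SD). The brightest TGACGCAA probes stood above that: HK08478 read 4.52, 4.21, 2.85 and 6.06 and HK27478 5.04, 4.17, 2.51 and 2.52. HK16883, HK25798 and HK33418, all TTGCGTCA probes, fell against C and no member rose, where 0.645% of all probes were lower and 0.0149% higher. HK25798 read 2.37 and 2.59 on C and 0.969, 0.745, 0.882 and 0.858 on 5hmC, a log2 change of -1.53 ± 0.21 (adjusted p = 0.00037). No TGACGCAA probe was called, though the estimates of all 17 were negative (-1.41 to -0.17). Within the array number that both groups share, 3 members were called as well, with no share of all probes given for that fit. Without CREB1(A297V) C replicate 2 the count was 1, and after normexp it was 6.

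Across all modified arrays the orientation ratio went one way. The TGACGCAA median was above the TTGCGTCA median on all 15 of the 5mC and 5hmC arrays, including those with other proteins and array numbers. The ratio was 9.44 and 10.7 for CEBPB(V285A) on 5mC, 10.3 and 10.9 for CREB1 on 5hmC and 5.59 for CREB1 on 5mC. It was 3.49 and 4.37 for CEBPB(V285A) on 5hmC, 2.44 and 1.22 for CEBPB on 5hmC, and 1.17 to 1.82 over the CREB1(A297V) arrays. Over the C arrays it ran from 0.712 to 1.40. CEBPB 5hmC replicate 2 and the CREB1(A297V) 5hmC arrays at 1.17, 1.27 and 1.34 lay within that range. Against the range over all C arrays, those arrays cannot be told from unmodified DNA by this ratio. The C arrays of CREB1(A297V) itself were at 1.20 and 0.978. Its 5hmC arrays at 1.27, 1.34 and 1.42 were above both of these, and the one at 1.17 lay between them. That comparison rests on 2 C arrays, and no C array of wild-type CEBPB is analysed here. The number of TGACGCAA probes above the highest TTGCGTCA probe ranged widely, from 3 of 17 on CEBPB 5hmC replicate 2 to 16 on the CREB1 5mC array and CREB1 5hmC replicate 2. It was 13 on CREB1 5hmC replicate 1, 10 and 11 on the CEBPB(V285A) 5mC arrays, 6 and 10 on its 5hmC arrays and 6 to 8 on the modified CREB1(A297V) arrays. On unmodified DNA this number was already 5 and 5 for CREB1, 3 and 4 for CEBPB(V285A) and 5 and 5 for CREB1(A297V). The number for CEBPB on 5hmC replicate 2 was therefore no higher than on C arrays of the other proteins. The size of the ratio depended on background and scaling. On the log2 scale its group mean for CEBPB(V285A) on 5mC was 3.33, and 2.08 after quantile normalization. For CREB1 it went from 2.48 to 3.62 on 5mC and from 3.41 to 4.50 on 5hmC after normexp, and for CREB1(A297V) on 5mC from 0.84 to 1.51. It was above 0 in every modified group under each of these scalings.

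Among proteins on 5hmC, CREB1 was the brightest at most TGACGCAA probes. Wild-type CEBPB was lower than CREB1 at 16 of 17 TGACGCAA probes and at 2 TTGCGTCA probes, and higher at 1 TTGCGTCA probe. Over the array 8.17% of probes were lower and 8.08% higher. The median log2 difference was -2.78 for TGACGCAA and -0.13 for TTGCGTCA probes, against 0.05 for all probes. HK39574 read 19.5 and 29.3 with CREB1 and 1.82 and 0.961 with CEBPB, an 18.1-fold difference (log2 -4.18 ± 0.38, adjusted p = 1.6e-07). The CEBPB arrays were far apart at the brightest members: HK09524 read 27.5 and 4.26 on them and HK08478 23.9 and 2.49. CEBPB and CREB1 on 5hmC shared an array number.

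CREB1(A297V) was lower than CREB1 on 5hmC at all 17 TGACGCAA probes and at 4 TTGCGTCA probes, and higher at 1. Here 12.1% of all probes were lower and 7.75% higher. The TGACGCAA median was -3.46 on the log2 scale, against 0.02 for all probes. Arrays of CREB1(A297V) on 5hmC lay under the number of its C arrays, which CREB1 on 5hmC did not share. Array number and protein are therefore not fully told apart here. HK39574 read 2.03, 1.12, 1.04 and 1.02 with CREB1(A297V), all far below the CREB1 arrays, a 19.2-fold difference (log2 -4.26 ± 0.33, adjusted p = 2e-08). HK21330 was the one member that was higher: it read 0.845 and 0.791 with CREB1 and 1.34, 1.74, 1.28 and 1.12 with CREB1(A297V), all near the typical spot (log2 difference 0.73 ± 0.21, adjusted p = 0.017).

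CEBPB(V285A) was lower than CREB1 on 5hmC at 5 TGACGCAA and 2 TTGCGTCA probes and higher at 2 TTGCGTCA probes. These shares were set against 5.89% lower and 5.43% higher over the array. CEBPB(V285A) on 5hmC had an array number other than that of CREB1 on 5hmC, so number and protein cannot be told apart. HK33530 read 11.3 and 14.9 with CREB1 and 1.95 and 1.52 with CEBPB(V285A), a log2 difference of -2.92 ± 0.29 (adjusted p = 1.3e-06). HK35601 read 8.01 and 5.22 against 1.55 and 1.48, a difference of -2.10 ± 0.29 (adjusted p = 4.2e-05). HK33342 went the other way, with 1.40 and 1.56 for CREB1 and 6.66 and 4.60 for CEBPB(V285A) (log2 difference 1.91 ± 0.28, adjusted p = 7.7e-05). HK20266 was likewise higher with CEBPB(V285A), at 4.56 and 3.57 against 1.99 and 1.93 (1.04 ± 0.25, adjusted p = 0.0072). The bright TGACGCAA probes HK08478, HK09524, HK25527 and HK27478 were saturated with CREB1, so their difference between these proteins was not measured.

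The V285A substitution could be set against its wild type on 5hmC only. CEBPB(V285A) was higher than CEBPB at 11 TGACGCAA and 2 TTGCGTCA probes and lower at no member, where 4.00% of all probes were higher and 5.91% lower. The median log2 difference was 1.49 for TGACGCAA and 0.20 for TTGCGTCA probes, against 0.02 for all probes. HK27478 read 5.49 and 3.17 with CEBPB and 32.1 and 88.3 with CEBPB(V285A), a 12.7-fold difference (log2 3.67 ± 0.51, adjusted p = 3.5e-05). HK20266 read 1.76 and 1.64 against 4.56 and 3.57, a log2 difference of 1.25 ± 0.25 (adjusted p = 0.0014). These groups did not share an array number. The count was 8, with 7 higher and 1 lower, without CEBPB 5hmC replicate 2, and 7 after normexp.

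Whether an effect of modification differed between proteins was tested as a difference of effects in the same fit. For 5mC, the effect with CEBPB(V285A) was more positive than with CREB1(A297V) at 7 TGACGCAA probes and 1 TTGCGTCA probe, and more negative at 8 TTGCGTCA probes. Of all probes 5.64% were called in the positive and 5.01% in the negative direction. With CREB1(A297V) the TTGCGTCA median was already 1.62 on C, which left little room above the typical spot for a fall. HK39573 had the largest positive difference, 3.05 ± 0.35 on the log2 scale (adjusted p = 6.1e-06), and HK19317 the largest negative one, -3.21 ± 0.41 (adjusted p = 1.7e-05). The count was 5 after normexp, with 1 positive and 4 negative, and 2 after quantile normalization. Between CREB1 and CREB1(A297V) no member's 5mC effect was called different, where 0.136% of all probes were called in the positive and 0.255% in the negative direction. Estimates were positive at 16 TGACGCAA probes and negative at 1, and negative at 16 TTGCGTCA probes and positive at 2. That contrast rests on the single CREB1 5mC array. It called 1 member within the shared array number, and 1 without CEBPB(V285A) 5mC replicate 1.

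For 5hmC, the effect with CEBPB(V285A) was more negative than with CREB1 at 13 TGACGCAA and 13 TTGCGTCA probes and more positive at none. Over the array 6.50% of probes were called in the negative and 1.78% in the positive direction. Over TTGCGTCA probes the array median was 13.8 with CEBPB(V285A) and 3.37 with CREB1 on C, but 1.27 and 1.19 on 5hmC. With both near the typical spot on 5hmC, the difference of effects at most TTGCGTCA probes mainly restates the difference on C. HK35601 had the largest estimate, -3.94 ± 0.41 (adjusted p = 1.1e-05), and HK39574 the next, -3.67 ± 0.53 (adjusted p = 0.00018). The count was 17 without CEBPB(V285A) C replicate 1, 14 after normexp and 0 after quantile normalization. The effect with CREB1(A297V) was more negative than with CREB1 at 11 TGACGCAA probes and more positive at 2 TTGCGTCA probes, HK21330 and HK33515. Here 2.97% of all probes were called negative and 1.35% positive, and 5 members remained called after quantile normalization. The mean of HK33515 on 5hmC was 1.04 with CREB1 and 1.01 with CREB1(A297V), from 3.54 and 1.54 on C. Both contrasts use the same CREB1 arrays, whose C and 5hmC forms did not share an array number, so number and form cannot be told apart.

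The bases beside the octamer went with the level within each orientation. Read along the strand that carries TGACGCAA, 4 TGACGCAA probes had a purine before and a pyrimidine after the octamer, 9 had 1 of these flanks and 4 had none. Their median levels with CEBPB(V285A) on C were 35.1, 10.2 and 5.06 in that order, and with CREB1 on C 14.1, 3.09 and 2.72. On modified DNA they were 65.2, 38.1 and 20.7 for CEBPB(V285A) on 5mC and 44.5, 11.9 and 8.71 for CREB1 on 5hmC, where 3 of the 4 probes with both flanks were at the ceiling on both arrays. For CREB1(A297V) on 5mC they were 8.78, 1.63 and 1.73, so the classes with 1 and no such flank were not in that order. Probes within a class still spread widely, since those with 1 such flank ran from 2.58 to 42.1 with CEBPB(V285A) on C.

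The TTGCGTCA probes, with 4, 10 and 4 members in these classes, had the same order on C. The medians were 22.6, 15.3 and 4.16 with CEBPB(V285A) and 6.20, 3.57 and 1.69 with CREB1. With 5hmC the classes drew together, at 1.45, 1.39 and 0.971 for CEBPB(V285A) and 1.16, 1.22 and 1.21 for CREB1. HK33079, which had none of these flanks, never rose above 1.14 on any array, so no binding above the typical spot was detectable there in any group.

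Position along the probe went with the level for some proteins among TGACGCAA probes. Counted from the first printed base, the octamer began at bases 1 to 28 in the TGACGCAA probes. Over the 17 probes Spearman's rho between start and level was -0.57 for CREB1 on C, -0.69 for CREB1 on 5hmC and -0.30, -0.18 and -0.08 for CEBPB(V285A) on C, 5mC and 5hmC. Over the 18 TTGCGTCA probes it was 0.15 for CREB1 on C, and 0.05, 0.42 and 0.49 for CEBPB(V285A) on C, 5mC and 5hmC. These are descriptions over spots of the same arrays, and 3 of the 4 probes with both flanks began at bases 4 to 6, so flank and position were not separate.

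The neighbouring probes that share 9 bases set the same site at either end of the printed sequence. HK39573 carried it at base 28, next to the linker, and HK39574 at base 2. With CREB1 they read 0.968 and 1.06 against 4.08 and 3.51 on C, and 3.38 and 3.22 against 19.5 and 29.3 on 5hmC. With CEBPB(V285A) they read 2.30 and 2.90 against 7.12 and 9.68 on C, and 17.6 and 22.3 against 46.9 and 31.0 on 5mC. With CEBPB(V285A) on 5hmC the gap was small, at 4.07 and 2.91 against 4.68 and 3.65. HK37104 and HK37105, which are TTGCGTCA probes, carried the site at bases 28 and 2. With CEBPB(V285A) on C they read 2.75 and 3.29 against 6.95 and 5.04. HK33529 and HK33530 carried it at bases 27 and 1. HK33529 and HK33530 went the other way with CEBPB(V285A), at 10.8 and 10.6 against 3.69 and 2.46 on C and 34.9 and 43.0 against 7.29 and 7.95 on 5mC. CREB1 on 5hmC gave 7.86 and 7.94 against 11.3 and 14.9. The pairs differ in all other bases, and in HK33530 the octamer is the last of the variable bases with no flank after it.

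The hybrid probes were set beside probes that carry the parent sites. With CEBPB(V285A) the 19 probes with the CRE palindrome had an array median of 24.6 ± 4.45 on C and 3.75 ± 1.32 on 5mC (SD, n = 2), a median log2 change of -2.15. The 17 probes with the C/EBP palindrome stood at 10.0 ± 1.08 on C and 32.3 ± 0.707 on 5mC, a median log2 change of 1.76. The medians of 1.57 for TGACGCAA and -1.36 for TTGCGTCA probes in that comparison had the sign of the C/EBP palindrome and of the CRE palindrome respectively. With CREB1 the CRE palindrome probes read 27.6 ± 4.74 on C and 5.33 ± 1.42 on 5hmC, above every hybrid median on C. The composite site TGATGCAA, in which the CRE half-site is TGAT, was at 1.35 ± 0.0212 with CREB1 on C and 25.6 ± 4.67 on 5hmC over 17 probes, a median log2 change of 3.65. Its other orientation, TTGCATCA, was at 1.25 ± 0.00707 and 1.16 ± 0.0424 over 18 probes. No test of the difference between these sets and the hybrid probes was made.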

How the data were processed

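For every one of 40330 spots the authors deposited a median scanner intensity and a median intensity of the surrounding background, which the headers name as separate columns, and the signal was used without background subtraction. The scanner software and any upstream version are not given in the sources used here. Per the labels, protein was detected with Cy5. The deposited score per 8-mer was not used, since it mixes probes. On 4 arrays the probe rows are numbered one off, so all arrays were joined by probe name.

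Each spot's intensity was divided by the array median, and log2 of this value was fitted with limma 3.58.1 in R 4.3.3: 1 coefficient per group, all 21 arrays, 11 residual degrees of freedom, a trended empirical Bayes step, two-sided tests and Benjamini-Hochberg adjustment over all 40330 probes, with calls at an adjusted p under 0.05. No probe was filtered, so all 35 members were tested. The number of arrays limits the precision. On simulated data for CEBPB(V285A) on 5mC against C, with 40330 probes, 37 of 100 changes of 1 log2 unit and 97 of 100 of 2 units were called, with 6 of 40130 unchanged probes. The simulation changed only 200 probes, drew independent noise for each array and had no scanner ceiling. In the data 10.4% of probes were called higher and 10.1% lower, so these rates need not hold for the real comparison.

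The rule for members reads sequence alone, but this site, and with it the members, lists and comparisons, was chosen with earlier results of these data known. Named probes are, in each orientation, the highest and lowest by mean log2 level and, in each of the 12 comparisons, the called member with the largest rise and fall whose arrays do not overlap. HK01179, HK08478, HK16883, HK25527, HK33418, HK33515, HK33529, HK37104 and HK37105 were named after their values were seen where this rule does not give them. Alternatives were normexp background correction (offset 50), quantile normalization, a filter on dim probes, the replicate number as a block, the number in the array name as a random block, arrays of 1 such number alone, and leaving out each array.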

Additional observations from a re-analysis of the deposited data

Results flagged for a closer look

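In CREB1(A297V) on 5hmC, the group with 4 arrays, HK39574 read 2.03 on replicate 1 and 1.12, 1.04 and 1.02 on the others. On the log2 scale of the unrounded values, the gap to the nearest value was 0.859 of the whole range, above Dixon's critical value for 4 samples. It was the single such value in 37 tests, and chance gives about 1 in 20.

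The effect of 5mC differed between CEBPB(V285A) and CREB1(A297V) at 16 members, the effect of 5hmC between CEBPB(V285A) and CREB1 at 26 members, and the effect of 5hmC between CREB1(A297V) and CREB1 at 13 members, by the interaction contrasts of the limma fit. The first fell to 2, the second to 0 and the third to 5 members after quantile normalization. On 5hmC most TTGCGTCA probes lay near the typical spot with each protein, so the 5hmC differences there mainly restate differences on C.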

How the results depend on the processing

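Counts of called members stayed within 1.5 times of their main value under the filter on dim probes and under the array-name number as a random block, in all 16 comparisons. The correlation estimated for that block was -0.0528, so the fit was close to the main one and its counts had little room to move. For CEBPB(V285A) the block cannot separate number from form, so the stable counts do not show that array number had no effect. After normexp the count went from 10 to 5 for CREB1 on 5mC, 1 to 2 for CREB1(A297V) on 5mC, 3 to 6 for CREB1(A297V) on 5hmC, 23 to 10 for CEBPB(V285A) against CREB1 on C, 12 to 4 for CREB1(A297V) against CREB1 on C and 13 to 7 for CEBPB(V285A) against CEBPB on 5hmC. For differences of effects it went from 16 to 5 (5mC, CEBPB(V285A) minus CREB1(A297V)) and 26 to 14 (5hmC, CEBPB(V285A) minus CREB1). After quantile normalization it went from 24 to 14 for CEBPB(V285A) on 5mC, 1 to 3 for CREB1(A297V) on 5mC, 23 to 1 for CEBPB(V285A) against CREB1 on C, 12 to 5 for CREB1(A297V) against CREB1 on C, and for differences from 16 to 2, 26 to 0 and 13 to 5 (5hmC, CREB1(A297V) minus CREB1). The TGACGCAA median of CEBPB(V285A) on 5hmC turned from -0.48 to 0.20. With arrays of 1 number alone the count went from 10 to 20 for CREB1 on 5mC, 12 to 20 for CREB1(A297V) against CREB1 on C and 0 to 1 for the 5mC difference between CREB1 and CREB1(A297V). The shares of all probes called under these settings are not given here, so these counts cannot be set against the whole array. The causes were not tested.

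Leaving out each array in turn gave 5 to 13 for CREB1 on 5mC, 0 to 2 for CREB1(A297V) on 5mC, 1 to 4 for CREB1(A297V) on 5hmC, 4 to 14 for CREB1(A297V) against CREB1 on C, 8 to 15 for CEBPB(V285A) against CEBPB on 5hmC, 0 to 1 for the 5mC difference between CREB1 and CREB1(A297V) and 17 to 26 for the 5hmC difference between CEBPB(V285A) and CREB1. A group left with 1 array is assumed to vary like the other groups.

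Replicate numbers were not taken to pair arrays, since most groups share 2 numbers. Over 28 pairs of groups the deviations of same-numbered arrays correlated at -0.142 to 0.495, with a median of 0.142. With the replicate number as a block no count moved by more than 1.5 times: it was 24 for CEBPB(V285A) on 5mC, 26 for CREB1 on 5hmC and 2 for CREB1(A297V) on 5hmC. A fit with mean in place of median intensity was listed but not run, as the files used here give the median. Signal close to local background limits CREB1(A297V), and levels near the typical spot limit many TTGCGTCA probes on modified DNA. Saturation limits the bright TGACGCAA probes with CREB1 and CEBPB(V285A).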

Other observations

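The order of probes by level correlated more closely between C and 5mC among TGACGCAA probes than among TTGCGTCA probes. Over the 17 TGACGCAA probes Spearman's rho between group levels was 0.92 for CREB1, 0.86 for CEBPB(V285A) and 0.92 for CREB1(A297V). Over the 18 TTGCGTCA probes it was 0.22 for CREB1, 0.24 for CEBPB(V285A) and 0.47 for CREB1(A297V), while on C the orders of CREB1 and CEBPB(V285A) correlated at 0.90. Many TTGCGTCA values on modified DNA lie close to the typical spot. These are descriptions over spots that share arrays, with no test.

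Among TTGCGTCA probes the level of CEBPB(V285A) on 5mC was lower where the synthesised strand held more cytosines (rho -0.77, n = 18), while on C it was -0.20 for the same probes. With the other proteins on 5mC it was 0.11 for CREB1 and -0.18 for CREB1(A297V). Among TGACGCAA probes the value for CEBPB(V285A) on 5mC was -0.12 (n = 17). For the change of CEBPB(V285A) from C to 5mC over the TTGCGTCA probes, rho with cytosine number was only -0.27. Their levels on 5hmC gave -0.55 for CEBPB(V285A), -0.42 for CEBPB, -0.33 for CREB1 and -0.22 for CREB1(A297V). The -0.77 was the largest in size of the values for cytosine number. Cytosine number goes with base composition and with the number of CG pairs, and their parts were not tested.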
